A study of Mus musculus with 2 samples.

Results

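The cornified envelope is the sheath of cross-linked protein and lipid that replaces the plasma membrane of a keratinocyte when it becomes a dead cell of the outermost skin layer. The 51 genes described here are those whose symbol begins with *Sprr* or *Lce* and a digit, together with *Lor*, *Ivl*, *Flg*, *Flg2*, *Hrnr*, *Sbsn*, *Krtdap*, *Cnfn*, *Tgm1*, *Tgm3*, *Tgm5*, *Cdsn*, *Ppl*, *Evpl* and *Casp14*. They were picked by symbol from 32285 genes. They comprise 21 late cornified envelope genes (*Lce*), 15 small proline-rich protein genes (*Sprr*) and 15 other genes.

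Cells were dissociated from whole back skin biopsies and whole preputial glands (PG) of male wild type C57BL/6 mice aged 52 weeks. The PG is a sebaceous-like gland of male rodents whose secretion leaves through a duct lined by stratified epithelium. Material of 3 mice was pooled by tissue and sequenced as 1 droplet library per tissue, so no test between tissues or classes was possible, and a difference between the libraries cannot be told apart from a difference between the tissues. The libraries held 37675226 unique molecular identifiers (UMIs) in skin and 26288071 in PG.

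Barcodes were kept from 500 genes and 1000 UMIs upward unless mitochondrial RNA exceeded 10% of their UMIs, which left 8899 in skin and 4699 in PG, with medians of 2386 and 2729 UMIs. No kept barcode occurred in both libraries. The barcode lists of the libraries differ in length, with 6794880 and 737280 entries, although the labels name a single kit for both. Levels are given as CPM, the UMIs of a gene summed over a class of cells per 1000000 UMIs of that class. Because UMIs come from the 3′ end of a transcript, levels of different genes could be set side by side without a correction for length. Intervals are exact 95% intervals and cover counting error only.

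As background, a keratinocyte leaves the basal layer, passes through the spinous layer and reaches the granular layer before it cornifies. Involucrin, envoplakin and periplakin form the first scaffold under the membrane, small proline-rich proteins cross-link it, loricrin adds most of its mass, and late cornified envelope proteins are added last. Transglutaminases make the cross-links. Filaggrin and its relatives bundle keratin filaments, and corneodesmosin holds the dead cells together. Most of these genes sit side by side in the epidermal differentiation complex. The duct of a sebaceous gland and the upper hair follicle are also lined by keratinocytes that cornify.

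In the mm10 assembly (GRCm38), 41 of the 51 genes lay between bases 92080271 and 93333570 of chromosome 3, a stretch of 1.25 Mb within the epidermal differentiation complex. *Lor* (ENSMUSG00000043165) lay at one end of this stretch (chr3:92080271-92083142) and *Hrnr* at the other (chr3:93319749-93333570), with the *Sprr* genes, *Ivl*, the *Lce* genes, *Flg2* and *Flg* between them. The other 10 genes lay elsewhere, among them *Krtdap* (ENSMUSG00000074199, chr7:30787896-30791097) and *Sbsn* (ENSMUSG00000046056, chr7:30751471-30756134). Of the 51 genes, 19 shared some 90-base stretch of their 3′ ends with another gene, which makes their counts uncertain. *Sprr2a1* and *Sprr2a2* shared all of theirs, *Sprr2a3* 50.2%, *Lce3c* 36.7% and *Sbsn* 24.9%, whereas *Lce1m*, *Sprr1a*, *Krtdap* and *Lor* shared none.

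Epithelial classes were set from marker genes that do not belong to the 51. A barcode was placed in a class when its marker score was at least 1.5 times that of any other class, so that each class is a range of a score and its name is no more than a likeness. Skin gave 3337 basal-like, 851 spinous-like, 64 granular-like, 331 upper follicle-like, 138 lower follicle-like, 229 hair matrix-like, 405 inner root sheath-like and 111 sebocyte-like barcodes. PG gave 1474 basal-like, 490 duct-like and 900 sebocyte-like barcodes. The duct-like class of PG and the upper follicle-like class of skin were set with the same markers. No PG barcode was spinous-like or granular-like, and 0 of 4699 allows a share of up to 0.0638%. Another 166 skin barcodes had spinous and granular scores too close to be told apart, and they are described as the spinous-granular group. Within the granular-like class, 29 of 64 barcodes had less than 2 times the score of the next class. Unassigned barcodes made up 22.4% in skin and 21.2% in PG. The median depth was 2964 UMIs in spinous-like, 5644 in spinous-granular, 6402 in granular-like and 2427 in upper follicle-like barcodes of skin, and 3858 in duct-like barcodes of PG. The immunoglobulin gene *Iglc2* stood first among the genes of the basal-like class of skin.

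Of the 51 genes, 25 reached 50 CPM and 10 UMIs in at least 1 epithelial class, namely 9 *Lce* genes, *Sprr1a* and all 15 of the other genes. Closest to that limit stood *Lce1f* at 52.0 CPM above it and *Sprr2a3* at 40.0 CPM below it. Of the 26 remaining genes, 22 had UMIs but missed 1 or both limits in every class, and 4 (*Sprr3*, *Lce3a*, *Lce3b* and *Lce3e*) had none in the kept barcodes. All 25 genes reached 50 CPM in a class of skin, and 21 of them stood highest in the granular-like class. Many of the 21 reached 50 CPM in that class alone, namely the 9 *Lce* genes, *Flg*, *Flg2*, *Hrnr*, *Cnfn*, *Tgm1* and *Cdsn*. They were thus picked through the class in which they are counted as highest. The share of all genes that stood highest there was not computed, so the count of 21 is a description only. The level of a gene in its highest class moved with the gate. It changed more than 1.5-fold for 14 of the 25 with a doubled margin, *Ivl* falling to 0.165 of its level, and for 13 with no margin. Whether each gene stayed highest in the same class was not tested. In PG, 4 genes reached 50 CPM in some class (*Sprr1a*, *Krtdap*, *Sbsn* and *Ppl*), and 24 of the 51 had no UMI in the kept barcodes. Genes without a UMI were common in that library, where 19688 of all 32285 genes had a UMI in any barcode. In skin, 4 of the 51 had no UMI in the kept barcodes, and 21766 of all genes had a UMI in any barcode. The share of all genes without a UMI in the kept barcodes was not computed. Whether the count of 24 is particular to the envelope genes can therefore not be told.

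The families were split unevenly between the tissues. Skin held 11833 *Lce* UMIs and PG held 4, while for the *Sprr* genes the counts were 3869 and 11387. For the other 15 genes they were 199364 and 23756. The heat map of all 25 genes shows these patterns class by class.

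**Figure D1:**
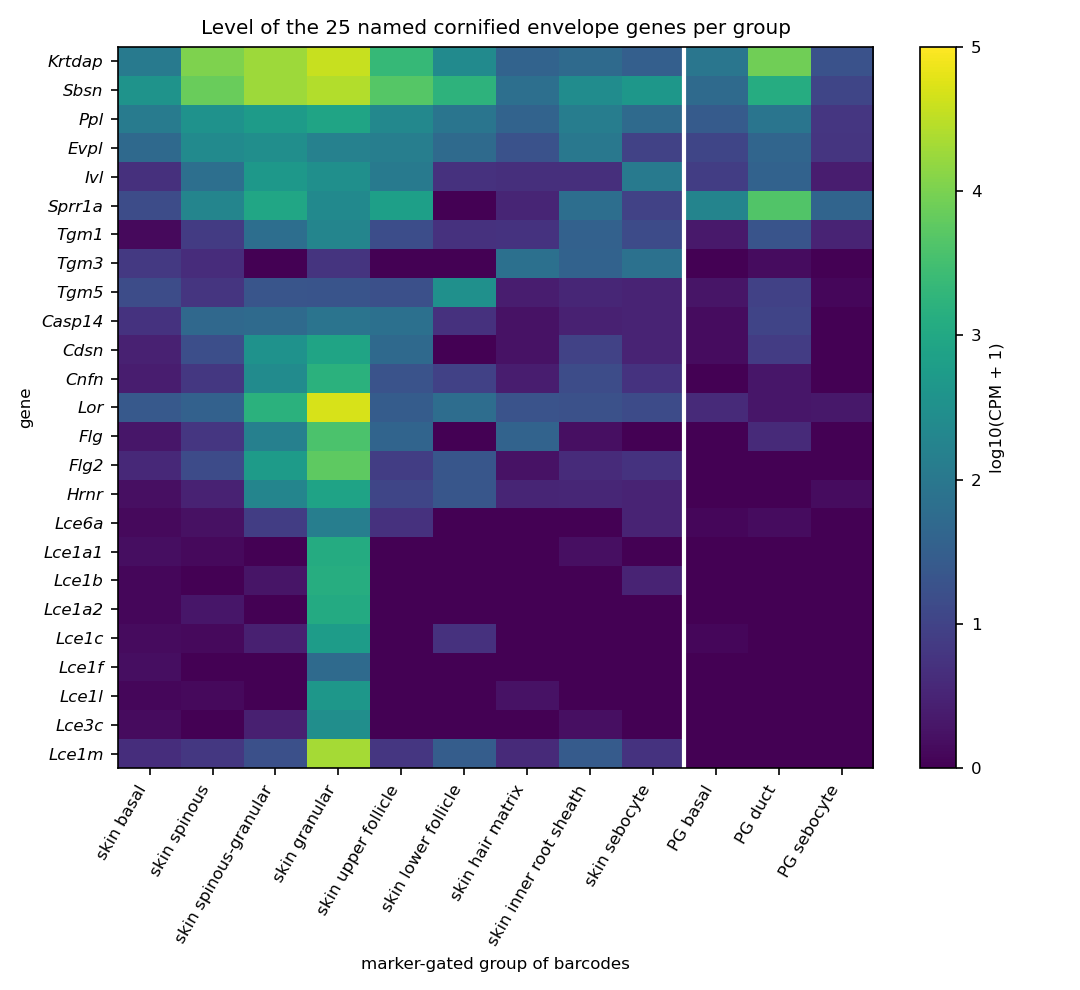
Level of each of the 25 genes that reached 50 CPM and 10 UMIs, as log10(CPM + 1) on the color scale, in 9 groups of skin and 3 classes of PG (left and right of the white line). The granular-like column of skin is bright in nearly every row, the *Lce* rows are dark outside it, and in the duct-like column of PG *Krtdap*, *Sprr1a* and *Sbsn* stand out.

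In the interfollicular epidermis of skin, the genes fell into an early set, already high in spinous-like cells, and a late set that was low until the spinous-granular group. *Krtdap*, which encodes a small secreted protein of differentiating keratinocytes, stood at 113 CPM (106.7 to 120.3) in basal-like, 10812 CPM in spinous-like, 18314 CPM in spinous-granular and 37418 CPM in granular-like cells. *Sbsn*, which encodes the secreted protein suprabasin, stood at 364, 7309, 18664 and 26740 CPM in the same order. Thus the early pair was high in each suprabasal group. *Lor*, which encodes loricrin, stood at 23.7, 34.6, 1584 and 48902 CPM, so that nearly all of its level was added after the spinous-like class.

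A step was counted as a difference when 2 classes differed at least 4-fold with at least 50 CPM and 10 UMIs in the higher one. A gene that reached these limits in only 1 of the 2 classes could be called only higher in that class. Of the 51 genes, 3 reached them in basal-like, 6 in spinous-like, 16 in spinous-granular and 23 in granular-like barcodes of skin. Counts of higher genes thus include genes that could not be called lower, and they are no evidence of a shared direction. The share over all genes follows the same rule. From basal-like to spinous-like cells, 6 of the 51 genes were high enough to be compared, and 5 were higher in spinous-like cells against 4.57% of all 2911 genes compared. *Krtdap* was 95.4-fold higher (log2 6.58, 6.49 to 6.66), *Sbsn* 20.1-fold, *Ivl* 16.3-fold, *Sprr1a* 14.1-fold and *Evpl* 5.09-fold. *Ppl*, which encodes the plakin periplakin and partners with envoplakin, was 2.97-fold higher, under the limit. The median log2 ratio of the 6 genes was 3.92, and that of all genes compared was -0.07. The basal-like level of *Krtdap* could not be told apart from background. It was detected in 7.70% of basal-like and 11.5% of fibroblast-like barcodes after thinning to 1000 UMIs, and 134 CPM of it was estimated to come from free RNA. That estimate takes the level in barcodes with 10 to 100 UMIs and the share of free RNA in a class, which was read from fibroblast and immune markers. It can be too high, as in the same class it gave 41.1 CPM for *Lor* and 10.3 CPM for *Lce1m*, against 23.7 and 3.545 CPM found. *Sbsn* was detected in 22.2% of basal-like and 28.3% of fibroblast-like barcodes. The *Sbsn* to *Krtdap* ratio of fibroblast-like barcodes (4.68) was far from that of free RNA (1.19), so their shares need not measure background for either gene. The basal-like level of *Sbsn*, 364 CPM, was above the 160 CPM estimated from free RNA.

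From the spinous-like class to the spinous-granular group, 16 of the 51 genes could be compared and 11 were higher by the same rule, against 2.33% of all genes. *Lor* was 45.7-fold, *Hrnr* 96.7-fold, *Cnfn* 46.5-fold, *Flg2* 42.8-fold, *Flg* 28.6-fold and *Cdsn* 24.1-fold higher. *Hrnr* encodes hornerin, a relative of filaggrin, and *Cnfn* encodes the envelope protein cornifelin. The cross-linker gene *Tgm1* was 10.2-fold higher, at 64.1 against 6.27 CPM. *Ivl* was 7.28-fold, *Sprr2h* 6.69-fold, *Sprr1b* 6.06-fold and *Sprr1a* 4.83-fold higher. Summed over the group, the involucrin and *Sprr* genes thus rose at this step together with the first *Lor*. After thinning, 3 of the 166 barcodes held both *Sprr1a* and *Lor*, 37 held *Sprr1a* without *Lor*, 20 held *Lor* without *Sprr1a* and 106 held neither. With so few detections, these counts cannot show whether the genes were expressed in different cells. The median barcode of the group held no *Lor* UMI. A single barcode held 413 of the group's 1804 *Lor* UMIs, together with 103 *Sprr1a* UMIs before thinning.

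From the spinous-granular group to the granular-like class, 25 genes could be compared. At least 4-fold higher were 14 of them, against 5.57% of all genes, and 2 were lower by as much, against 4.39%. Higher were 9 *Lce* genes together with *Lor* (30.9-fold), *Flg* (25.6-fold), *Flg2* (10.6-fold), *Cnfn* (6.07-fold) and *Hrnr* (4.15-fold). None of the 9 *Lce* genes reached 50 CPM in the spinous-granular group, so the rule could not call them lower in the granular-like class. *Sprr1b* fell from 138 to 14.2 CPM and *Sprr2h* from 77.3 to 9.45 CPM. *Sprr1a* stood at 916 CPM (861 to 973) in the spinous-granular group and at 239 CPM (194.4 to 290) in the granular-like class, 3.84-fold lower and within the limit. *Ivl* stood at 471 and 302 CPM. By the 4-fold rule, *Sprr1b* and *Sprr2h* were thus lower in the class where the *Lce* genes were highest.

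Directly from spinous-like to granular-like cells, 23 genes could be compared and 17 were at least 4-fold higher, against 10.4% of all genes. The median log2 ratio of the 23 was 8.14, and that of all genes compared was -0.30. Only 6 of the 51 genes reached 50 CPM in spinous-like cells, so most of the 23 could be called only higher. Neither the count nor the median is therefore evidence of a shared direction. *Lce1m* was 3824-fold higher (log2 11.90, 11.22 to 12.68), *Lor* 1412-fold (log2 10.46, 10.19 to 10.75), *Flg* 734-fold, *Flg2* 455-fold and *Tgm1* 29.8-fold. The spinous-like levels of *Lce1m* (5.61 CPM) and *Lor* (34.6 CPM) were below what free RNA was estimated to bring, 14.8 and 58.7 CPM, so the size of these folds depends on background. The 6 genes that did not pass were *Sbsn* (3.66-fold higher), *Krtdap* (3.46-fold), *Ppl* (2.31-fold), *Casp14* (1.69-fold), *Sprr1a* (1.26-fold) and *Evpl* (1.64-fold lower). All of these except *Casp14*, a caspase that helps break down filaggrin, and *Ppl* had already passed at the step from basal-like to spinous-like cells. In the 64 granular-like barcodes the 51 genes took 15.4% of all UMIs, with *Lor* alone at 31.7% of that amount.

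**Figure D2:**
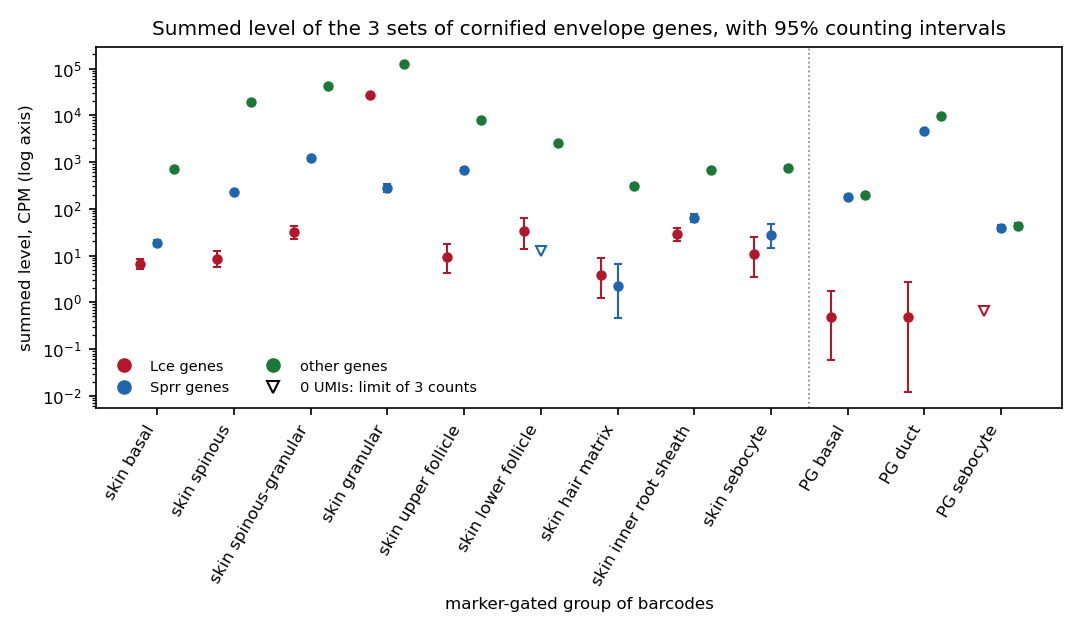
Summed level of the 21 *Lce* genes, the 15 *Sprr* genes and the 15 other genes in 9 groups of skin and 3 classes of PG (right of the dotted line), in CPM on a log axis with exact 95% counting intervals. Open triangles mark the limit of 3 counts where no UMI was seen. *Lce* genes rise above 100 CPM in granular-like skin cells alone, at 26588 CPM, whereas the highest point of the *Sprr* genes is the duct-like class of PG at 4513 CPM.

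The transglutaminase genes and *Casp14* were low in the epidermal classes. In granular-like cells *Tgm1* stood at 187 CPM, *Casp14* at 82.7 CPM and *Tgm5* at 18.9 CPM, while *Cdsn*, the corneodesmosin gene, stood at 820 CPM. Of the scaffold plakins, *Ppl* stood at 829 CPM and *Evpl* at 154 CPM. *Evpl* did not share the late rise, with 251 CPM in spinous-like and 292 CPM in spinous-granular cells. *Flg2* (5851 CPM) and *Flg* (3873 CPM) were the highest of the filaggrin-like genes, and *Hrnr* (794 CPM) was the lowest of them. A single granular-like barcode held 498 of the 2411 *Flg* UMIs of skin (20.7%). Per 10000 UMIs, the median granular-like barcode held 5.35 of *Flg* and 49.7 of *Flg2*. The level and the folds of *Flg* thus rest on few barcodes.

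Promoter sequences of the genes that mark these patterns are given to set an early gene, *Sprr1a*, a late gene and *Lce* genes side by side. They come from RefSeq on GRCm38.p6 and run from 250 bases before to 50 bases after the transcription start, 5′ to 3′ on the strand of the gene. Capitals mark the AP-1 letters TGANTCA and the TATA box letters TATAAA. *Krtdap* (chr7:30787655-30787954, plus strand) was an early gene. *Sprr1a* (chr3:92485832-92486131, minus strand), the leading *Sprr* gene of PG, stood at 190 CPM in spinous-like cells and rose further in the spinous-granular group. *Lor* (chr3:92083093-92083392, minus strand) was the late gene of the highest level. *Lce1m* (chr3:93019012-93019311, minus strand) and *Lce1b* (chr3:92656877-92657176, minus strand) were the highest *Lce* genes of the class, the latter through 1 barcode with 63% of its UMIs.
Krtdap: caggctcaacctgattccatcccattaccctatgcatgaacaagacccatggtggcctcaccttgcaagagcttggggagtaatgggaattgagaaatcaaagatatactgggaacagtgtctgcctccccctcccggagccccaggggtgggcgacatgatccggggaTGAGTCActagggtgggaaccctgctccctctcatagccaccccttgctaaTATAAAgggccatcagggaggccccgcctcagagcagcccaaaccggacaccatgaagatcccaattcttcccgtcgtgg
Sprr1a: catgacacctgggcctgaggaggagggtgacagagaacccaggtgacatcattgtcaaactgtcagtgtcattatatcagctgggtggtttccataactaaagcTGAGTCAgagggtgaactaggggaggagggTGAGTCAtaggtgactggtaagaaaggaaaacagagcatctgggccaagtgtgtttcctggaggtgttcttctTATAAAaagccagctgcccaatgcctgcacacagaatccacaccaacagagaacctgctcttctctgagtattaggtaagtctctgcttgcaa
Lor: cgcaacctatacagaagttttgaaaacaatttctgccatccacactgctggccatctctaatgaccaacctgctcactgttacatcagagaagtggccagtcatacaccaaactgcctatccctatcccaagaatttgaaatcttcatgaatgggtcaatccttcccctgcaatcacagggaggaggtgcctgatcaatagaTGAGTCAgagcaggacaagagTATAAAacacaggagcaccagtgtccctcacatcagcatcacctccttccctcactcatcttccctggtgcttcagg
Lce1m: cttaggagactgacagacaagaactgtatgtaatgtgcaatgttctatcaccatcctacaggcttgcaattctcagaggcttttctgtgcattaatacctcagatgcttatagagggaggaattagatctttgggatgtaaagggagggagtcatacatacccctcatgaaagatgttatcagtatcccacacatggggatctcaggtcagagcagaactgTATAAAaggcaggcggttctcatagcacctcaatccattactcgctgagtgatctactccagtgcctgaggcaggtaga
Lce1b: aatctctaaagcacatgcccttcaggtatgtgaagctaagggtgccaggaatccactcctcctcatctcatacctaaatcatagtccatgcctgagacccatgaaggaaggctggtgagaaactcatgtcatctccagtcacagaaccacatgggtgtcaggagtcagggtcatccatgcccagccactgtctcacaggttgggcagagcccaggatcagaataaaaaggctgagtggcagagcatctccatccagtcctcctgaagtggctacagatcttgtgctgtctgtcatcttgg

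Both motifs were searched on both strands, and they do not overlap each other. The AP-1 letters begin 81 bases before the start of *Krtdap*, 146 and 116 bases before that of *Sprr1a* and 48 bases before that of *Lor*. The TATA letters begin 30, 43, 27 and 29 bases before the start of *Krtdap*, *Sprr1a*, *Lor* and *Lce1m*, and *Lce1b* has neither. Promoters were found for 47 of the 51 genes, 49 in all. AP-1 letters occurred in 15 of the 49 (30.6%) and in 7.81% of 32851 promoters of all genes. They occurred in 9 of 14 *Sprr* promoters, in 6 of 15 promoters of the other genes and in 0 of 20 *Lce* promoters. TATA letters occurred in 20 of the 49 (40.8%) and in 13.6% of all promoters, with 10 of 14 among *Sprr* and 4 of 20 among *Lce* genes. The letters CCACCC, bound by KLF factors, occurred in 30.6% of the 49 against 31.5% of all, CCAAT in 30.6% against 37.4%, and the GRHL letters AACCNGTT in 2.04% against 2.09%. Such matches describe the letters of this window and are no evidence of binding.

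The *Lce* genes of skin rested on few barcodes. Of the 64 granular-like barcodes, 37 held at least 1 *Lce* UMI, and 12 that held at least 100 had 10938 UMIs, or 92.4% of all *Lce* UMIs of skin. After thinning, *Lce1m* was detected in 31.2% of granular-like barcodes, and all 20 of those barcodes also held *Lor*. *Lor* itself was detected in 84.4%, against 3.06% of spinous-like, 4.09% of immune-like and 1.56% of fibroblast-like barcodes. The spinous-like share thus lay between the immune-like and the fibroblast-like share. In free RNA of skin, *Lce1m* stood at 133 CPM. After the same thinning, *Lor* was thus detected in more granular-like barcodes than *Lce1m*.

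The 12 barcodes with many *Lce* UMIs were set apart by the *Lce* genes themselves, so their other values are a description. Per 10000 UMIs, the median of *Lor* was 1090 in these 12 (786 to 1582) and 154 in the other 52 (0 to 1043). That of *Krtdap* was 373 and 301, that of *Sbsn* 212 and 279, and that of *Flg2* 54.2 and 49.3. *Ivl* had a UMI in 2 of the 12 and in 34 of the 52. The spinous keratin *Krt10*, not one of the 51 genes, had a median of 2.05 in the 12 and 66.7 in the 52. *Crct1*, which encodes a cysteine-rich protein of the same gene complex, had medians of 821 and 27.6. Barcodes rich in *Lce* RNA were therefore also high in *Lor* and *Crct1* and low in *Krt10* and *Ivl*.

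**Figure D3:**
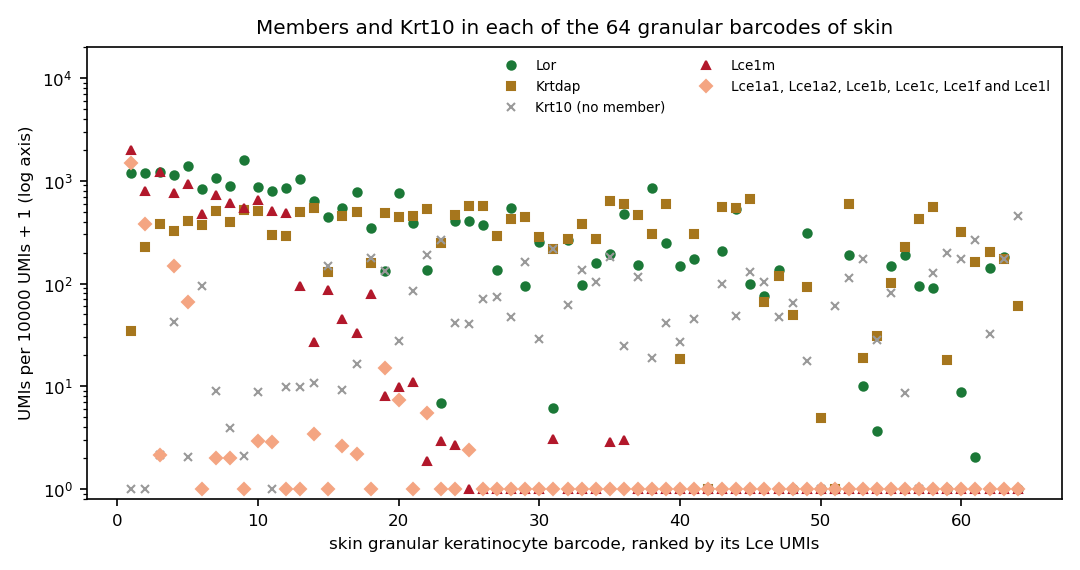
UMIs per 10000, plus 1, on a log axis for *Lor*, *Krtdap*, *Lce1m*, the sum of 6 other *Lce1* genes and the keratin gene *Krt10* in each of the 64 granular-like barcodes of skin, ranked by their *Lce* UMIs. *Lce1m* is high in the first 12 barcodes, the other *Lce1* genes are high in very few of these, and *Krt10* is mostly low where *Lce1m* is high.

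Individual *Lce* genes differed in how widely they were spread. *Lce1m* stood at 21444 CPM in the granular-like class, 80.7% of the *Lce* sum, and its highest barcode held 18.6% of its UMIs. A single barcode held 84.7% of the *Lce1l* UMIs, 77.8% of *Lce3c*, 63% of *Lce1b*, 55.1% of *Lce1a2*, 47.1% of *Lce1c* and 44.9% of *Lce1a1*. For all of these but *Lce3c* it was the same barcode, which had 8658 UMIs and 697 genes. It held 3023 *Lce* UMIs, of which 1722 were *Lce1m*, 411 *Lce1b*, 292 *Lce1a2* and 271 *Lce1a1*, together with 1029 *Lor* UMIs and no *Krt10* UMI. The barcode of rank 3 in *Lce* UMIs held 1078 *Lce1m* among its 1082. *Lce1m* without the other *Lce1* genes and *Lce1m* with them thus occurred in different barcodes of the class.

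Without the highest barcode, *Lce1b* fell from 1285 to 321 CPM, *Lce1a1* from 1167 to 538, *Lce1a2* from 1132 to 451, *Lce1c* from 567 to 265, *Lce1l* from 451 to 60.3 and *Lce1f* from 52.0 to 31.4 CPM. *Lce1m* stood at 17738 CPM and the *Lce* sum at 19851 CPM without it. The levels of the *Lce1* genes other than *Lce1m* are therefore the values of very few cells. Outside the granular-like class, an inner root sheath-like barcode held 40 *Lce1m* and 778 *Crct1* UMIs with no *Lor*, and an unassigned barcode held 218 *Lce* UMIs with 194 UMIs of the basal keratin *Krt14*. Whether these barcodes hold RNA of more than 1 cell was not tested. The *Lce* sum of the granular-like class also moved with the gate, to 12939 CPM with no margin between scores (125 barcodes) and to 85345 CPM with a doubled margin (22 barcodes).

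The *Sprr* genes other than *Sprr1a* were low, and in skin most of their UMIs fell in the spinous-granular group. That group held 157 of 294 *Sprr1b* UMIs (53.4%), 88 of 149 *Sprr2h* (59.1%), 23 of 37 *Sprr2d* (62.2%), 30 of 32 *Sprr2f* (93.8%) and 19 of 28 *Sprr2i* (67.9%). The *Sprr2f* and *Sprr2i* UMIs of skin lay in 6 barcodes each, with 16 and 15 in the highest barcode. For *Sprr2d*, 1 barcode held 12 UMIs. The spinous-granular group also held 1043 of 3257 *Sprr1a* UMIs (32%) and 536 of 1245 *Ivl* UMIs (43.1%). The 8 skin barcodes with the most *Sprr* UMIs other than *Sprr1a* all belonged to it, and 4 of these held no *Lor* UMI. *Sprr1b* (138 CPM) and *Sprr2h* (77.3 CPM) passed 50 CPM there, outside the gated classes, and they are named after their values were seen. By simulated doublets, 7.23% of the spinous-granular barcodes scored as doublets, against 7.12% of all skin barcodes. The share over all barcodes was set in advance by an assumed rate of 0.8% per 1000 barcodes and was not measured. These shares therefore cannot show whether the group held doublets.

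**Figure D4:**
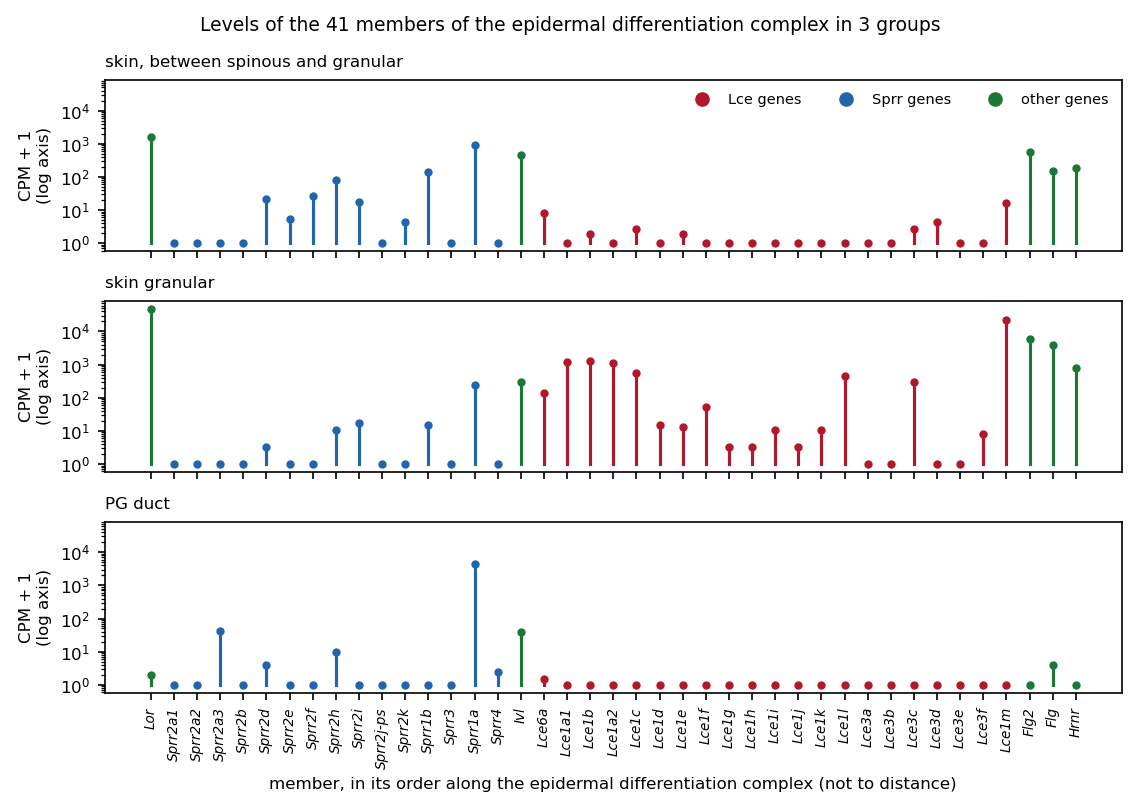
Level of the 41 genes of the epidermal differentiation complex, as CPM + 1 on a log axis, in their order along chromosome 3 (not to distance) for the spinous-granular group of skin, the granular-like class of skin and the duct-like class of PG. In the spinous-granular group *Lor* (1584 CPM) and *Sprr1a* (916 CPM) are highest, 9 *Lce* genes pass 50 CPM in the granular-like class, and in PG *Sprr1a* is highest at 4459 CPM.

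In skin appendages, the upper follicle-like class shared most of the early genes with the epidermis and had little *Lor* or *Lce* RNA. Compared with basal-like cells, 7 genes could be assessed and 5 were at least 4-fold higher, against 4.06% of all genes. These were *Sprr1a* (50.1-fold), *Ivl* (29.0-fold), *Krtdap* (19.4-fold), *Casp14* (15.2-fold) and *Sbsn* (13.4-fold). *Sbsn* stood at 4865 CPM (4728 to 5004), *Krtdap* at 2200, *Sprr1a* at 673 (623 to 727) and *Ivl* at 115 CPM. *Lor* stood at 27.5 CPM, close to the 23.7 CPM of basal-like cells, and the *Lce* sum at 9.15 CPM. Of the other late genes, *Cdsn* stood at 49.8 and *Flg* at 39.7 CPM, against 14.9 and 5.28 CPM in spinous-like cells. *Sprr1a* was 3.55-fold higher and *Krtdap* 4.92-fold lower than in spinous-like cells. The *Sprr* sum of the class, 682 CPM, was 374 CPM with classes set by clustering and 405 CPM with a doubled gate margin.

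Transglutaminases differed from class to class in the appendages. *Tgm5* was highest in the lower follicle-like class at 327 CPM (260 to 407), 24.5-fold above basal-like cells, and was detected in 27.5% of these barcodes after thinning. In that class, 81 of 138 barcodes had less than 2 times the score of the next class. The *Tgm5* level there changed more than 1.5-fold with at least 1000 genes and 2000 UMIs, though not with a doubled margin. Leiden clusters gave no lower follicle-like class. *Tgm3*, which encodes an enzyme that cross-links hair and envelope proteins, was highest in the sebocyte-like (72.8 CPM) and hair matrix-like (68.9 CPM) classes, whose intervals overlapped (50.4 to 101.7 and 55.6 to 84.5), and stood at 35.9 CPM in the inner root sheath-like class. *Tgm1* stood at 34.0 CPM in inner root sheath-like cells. The epidermal granular-like class held 2 *Tgm3* UMIs in all. The lower follicle-like class had no *Sprr* UMI, which allows up to 12.3 CPM.

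In PG, the envelope genes were found mainly in the duct-like class, led by *Krtdap* and *Sbsn* of the early set and by *Sprr1a*. *Krtdap* stood at 8330 CPM (8205 to 8456), *Sprr1a* at 4459 CPM (4368 to 4552), *Sbsn* at 1221 CPM (1173 to 1269) and *Ppl* at 85.4 CPM. Below 50 CPM were *Evpl* (41.5), *Sprr2a3* (40.0), *Ivl* (37.1), *Tgm1* (18.5), *Casp14* (9.76) and *Tgm5* (8.29 CPM). *Lor* had 2 UMIs, *Lce1m* none (up to 1.46 CPM) and the *Lce* sum 1 UMI among 2049831. *Krtdap* thus stood near its level in spinous-like skin cells (10812 CPM), while *Lor*, *Cnfn*, *Flg*, *Flg2*, *Hrnr* and the *Lce* genes were at or near 0.

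Within PG, 4 genes could be compared between duct-like and basal-like cells, and 3 were at least 4-fold higher, against 4.99% of all genes. *Krtdap* was 89.8-fold (log2 6.49, 6.34 to 6.64), *Sprr1a* 25-fold (log2 4.65, 4.54 to 4.76) and *Sbsn* 22.9-fold higher, and *Ppl* was 3.32-fold higher. The median log2 ratio of the 4 was 4.58, and that of all genes compared was -0.21. In the same gland, sebocyte-like cells were lower than basal-like cells in 3 of 3 genes, against 4.55% of all genes. These 3 reached 50 CPM in the basal-like class, and none of the 51 did in the sebocyte-like class. The rule could therefore call none of them higher there, and the shared direction is no evidence. *Sprr1a* stood at 39.7 against 178 CPM, *Krtdap* at 17.5 against 92.8 and *Sbsn* at 9.99 against 53.4 CPM. Of these levels, that of *Sprr1a* in basal-like cells was above the 46.9 CPM estimated from free RNA. *Sprr1a* was detected in 8.14% of thinned basal-like barcodes, against 2.0% of fibroblast-like and 2.56% of sebocyte-like ones. *Krtdap* was detected in 5.83% of PG basal-like and 9.44% of fibroblast-like barcodes, and free RNA was estimated to bring 83.7 CPM of it to basal-like cells. In sebocyte-like cells the same estimate was far above the *Krtdap* level found. It therefore cannot show whether the basal-like level, and its difference from sebocyte-like cells, was background. *Sbsn* was detected in 4.41% of basal-like and 9.62% of fibroblast-like barcodes. The fibroblast-like shares need not measure background for either gene, because the *Sbsn* to *Krtdap* ratio was 1.46 in fibroblast-like barcodes and 0.123 in free RNA. The basal-like level of *Sbsn* was above the 10.3 CPM estimated from free RNA. In sebocyte-like cells the estimate was 44 CPM for *Sprr1a* and 9.68 CPM for *Sbsn*, close to the levels found. For *Krtdap* it was 78.5 CPM, far above the 17.5 CPM found. The estimate therefore cannot show whether the *Sprr1a* and *Sbsn* levels of sebocyte-like cells were background.

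The duct-like class of PG and the upper follicle-like class of skin differed in *Sprr1a* and *Casp14*. Of the 7 genes that could be compared, 1 was at least 4-fold higher in PG, against 4.49% of all genes, and 1 was lower, against 6.07%. *Sprr1a* was 6.62-fold higher in PG (log2 2.73, 2.61 to 2.84) and *Casp14* was 6.98-fold lower (log2 -2.80, -3.60 to -2.07). *Krtdap* was 3.79-fold higher in PG (log2 1.92). *Sbsn* was 3.99-fold lower, just inside the limit, and *Evpl* (3.26-fold), *Ivl* (3.1-fold) and *Ppl* (2.50-fold) were lower as well.

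**Figure D5:**
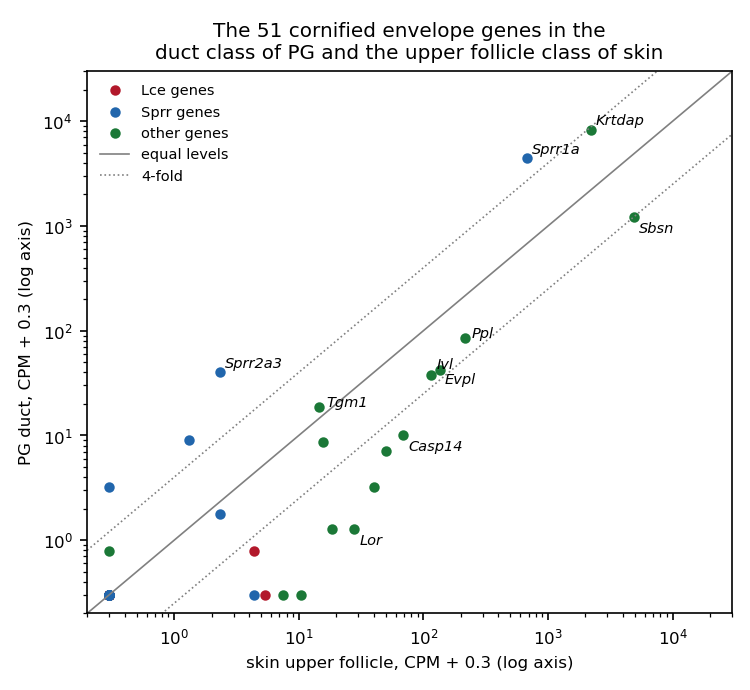
Level of each of the 51 genes in the upper follicle-like class of skin (horizontal axis) and the duct-like class of PG (vertical axis), as CPM + 0.3 on log axes, with lines at equal levels and at 4-fold. *Sprr1a* lies above the upper 4-fold line at 4459 against 673 CPM, *Casp14* below the lower one, and *Krtdap* and *Sbsn* lie near the upper and the lower line.

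Summed over families, the *Sprr* genes were higher in PG by 2.73 on the log2 scale, at 4513 CPM (4421 to 4605) against 682 CPM (632 to 736). This log2 ratio was 3.671 with a doubled gate margin and 3.507 with classes set by clustering. The other 15 genes stood at 9763 against 7778 CPM (log2 0.33), a difference that was 1.17 with a doubled margin and reversed to -0.23 with clustering. The markers of the classes also moved. *Krt79* stood at 7118 CPM in skin and 2596 CPM in PG, *Krt17* at 18561 and 8910, *Krt6a* at 659 and 1710, *Krt10* at 711 and 31.7, and the summed sebocyte markers at 2624 and 8234 CPM. Whether the same kind of cell was compared in both tissues was not tested.

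Per barcode, *Sprr1a* and *Krtdap* were found in more barcodes of the PG duct-like class than of the skin class. After thinning, *Sprr1a* was detected in 74.3% of PG duct-like and 26.6% of skin upper follicle-like barcodes, and *Krtdap* in 81.6% and 42.9%. Both genes were found in 65.9% of PG barcodes and neither in 10%. In skin, both were found in 15.7% and neither in 46.2%. *Sbsn* showed the other order, with 48.2% of PG and 80.4% of skin barcodes. Per 10000 UMIs, the median of *Krtdap* was 60.2 in PG (0 to 439) and 2.18 in skin (0 to 142), and that of *Sprr1a* was 25.1 (0 to 303) and 0 (0 to 105).

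The ratio of *Sbsn* to *Krtdap* UMIs was 3.21 in basal-like, 0.676 in spinous-like, 0.715 in granular-like, 2.21 in upper follicle-like and 13.6 in sebocyte-like cells of skin. In PG it was 0.575 in basal-like, 0.147 in duct-like and 0.57 in sebocyte-like cells. The ratio was thus lower in the duct-like class than in the upper follicle-like class. Sebocyte-like values rest on 15 *Krtdap* UMIs in skin and on 79 *Krtdap* and 45 *Sbsn* UMIs in PG. In basal-like and sebocyte-like cells of both tissues, *Krtdap* stood near or below the level estimated from free RNA. No likeness to other classes can therefore be read from their ratios. In free RNA it was 1.19 in skin and 0.123 in PG. Fibroblast-like barcodes had 4.68 in skin and 1.46 in PG, both far from the free RNA of their library. The *Sbsn* level of PG fibroblast-like barcodes, 201 CPM, was above the 116 CPM of free RNA.

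Basal-like cells of the tissues also differed in *Sprr1a*. Of 4 genes compared, *Sprr1a* was 13.2-fold higher in PG (178 against 13.5 CPM), against 5.21% of all genes, and 2 were lower, against 6.98%. *Sbsn* was 6.81-fold lower (53.4 against 364 CPM) and *Ppl* 4.71-fold lower (25.7 against 121 CPM), while *Krtdap* was within 1.22-fold. Free RNA was estimated to bring 160 CPM of *Sbsn* to basal-like cells of skin and 10.3 CPM to those of PG. For *Krtdap* the estimates were 134 and 83.7 CPM, near the 113 and 92.8 CPM found. Because the estimate can be too high, it cannot show whether the *Krtdap* ratio compares background levels.

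In sebocyte-like cells, *Sbsn*, *Ivl*, *Ppl* and *Tgm3* were lower in PG than in skin. All 4 genes that could be compared were at least 4-fold lower in PG, against 8.1% of all genes. None of the 51 genes reached 50 CPM in sebocyte-like cells of PG, so the rule could call none of them higher there. The count of 4 is therefore no evidence of a shared direction. *Sbsn* stood at 437 CPM in skin and 9.99 in PG, *Ivl* at 114 (85 to 148) and 1.55, and *Ppl* at 51.4 and 5.10 CPM. *Tgm3* stood at 72.8 CPM in skin and had no UMI in PG, at least 109-fold lower by the limit of 3 counts. *Ivl* was detected in 5.41% of thinned sebocyte-like barcodes of skin and in 0.209% of fibroblast-like ones, so that it was above background. *Sbsn* was detected in 12.6% against 28.3%, and its level in skin was near the 387 CPM estimated from free RNA. For *Krtdap* the same estimate was 325 CPM against 32.1 CPM found, and for *Lor* 99.5 against 12.85 CPM. The *Sbsn* to *Krtdap* ratio of fibroblast-like barcodes (4.68) was also far from that of free RNA (1.19). Neither the estimate nor the fibroblast-like share can therefore show whether this *Sbsn* level was background. *Sprr1a* stood at 39.7 CPM in PG and 8.56 CPM (4 UMIs) in skin. The skin class held 111 barcodes and 53 *Ivl* UMIs. It also held follicle markers, with 6 of 7 inner root sheath markers at a sum of 3194 CPM and 6 of 9 hair matrix markers at 608 CPM. In the PG class, 3 of 7 and 1 of 9 of these were found, at 3.77 and 0.222 CPM. Their part in the differences was not tested.

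*Sprr2a3* differed from the rest of its family. It had 94 UMIs in PG, of which 82 lay in the duct-like class and 41 in 1 barcode, and 50 UMIs in skin, none of them in the spinous-granular group. Apart from *Sprr1a*, the remaining *Sprr* genes had 0 to 26 UMIs each in PG, the highest count being that of *Sprr2h*. Of the *Lce* genes, 3 had UMIs in PG, 4 in total.

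Other genes of cornification showed which neighbors moved with the 51. Of 33 listed genes that served as no class marker, 23 could be compared between granular-like and spinous-like cells, and 5 were at least 4-fold higher, against 10.4% of all genes. These were *Crct1* (29597 against 25.7 CPM), the cystatin gene *Csta1* (2382 against 32.3), the protease genes *Klk5* (489 against 54.4) and *Prss8* (85.1 against 12.9), and *Prdm1* (177 against 24.7), which encodes the transcription factor Blimp1. From basal-like to spinous-like cells 4 of 18 were higher, against 4.57% of all genes, namely the transcription factor genes *Zfp750* and *Grhl1*, *Klk5* and *S100a3*. From basal-like to upper follicle-like cells 5 of 17 were higher, against 4.06% of all genes, and 1 was lower, *Serpinb2* at 229 against 1253 CPM. In PG, 5 of 12 were higher in duct-like than in basal-like cells, against 4.99% of all genes, among them *Anxa1*, an annexin of the envelope (2680 against 301 CPM), *Cstb* (7627 against 1207 CPM) and *Pglyrp4* (129 against 7.69 CPM). Between the duct-like class and the upper follicle-like class, 2 of 19 were higher in PG, against 4.49% of all genes (*Anxa1* at 2680 against 500 CPM and *S100a8* at 178 against 14.2 CPM). *Crct1*, *Serpinb2*, *Klk5*, *Klf4*, *Hopx*, *Barx2* and *Fosl1* were lower in PG, 7 of 19 against 6.07% of all genes, with *Klf4*, a transcription factor gene of the barrier, at 74.2 against 648 CPM.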

How the data were processed

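Single cells of back skin and PG were sequenced as 1 library each, grouped by the tissue in the labels. The deposited values are raw UMI counts per gene and barcode. Per the labels, the authors used the 10x Chromium 3′ v3.1 kit and aligned reads to mm10 with Cell Ranger, and the file header names Cell Ranger 4. Barcodes with at least 500 genes, 1000 UMIs and at most 10% mitochondrial UMIs were kept, and no doublets were removed in the values reported.

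The genes and lists were chosen with earlier results of these data known, the gating rule was set after looking at marker levels, and the motifs were chosen after levels were seen. A barcode needed 3 UMIs from 3 markers and a score of 0.1 for a class. Genes are named where they reached 50 CPM and 10 UMIs in a class. Levels are summed counts scaled to CPM with exact Poisson intervals, ratios have exact binomial intervals and shares Clopper-Pearson intervals, at 95%. Shares of barcodes were taken after thinning to 1000 UMIs. A count of 0 was read as up to 3 counts. No test was possible without replicate libraries, and a difference of at least 4-fold stood in its place. Positions are from GENCODE M21. Scripts were tested on simulated data. Results were recomputed under 8 other settings, and under 2 more chosen after seeing the data, and one of the former used Leiden clusters (30 components, 15 neighbours, 2000 variable genes, resolution 1.0). Python 3.11.15, numpy 2.4.6, scipy 1.17.1, pandas 2.3.3, matplotlib 3.10.9, igraph 0.11.9 and leidenalg 0.10.2 were used.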

Additional observations from a re-analysis of the deposited data

Results flagged for a closer look

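For *Ivl* and *Sbsn*, the log2 ratio of sebocyte-like over basal-like cells had opposite signs in the 2 tissues, and these differences between tissues were not tested. *Ivl* was higher in sebocyte-like cells of skin by 4.84 on the log2 scale (4.21 to 5.48, 53 against 38 UMIs) and lower in those of PG, at -2.17 (-3.60 to -0.94, 7 against 29 UMIs). *Sbsn* was at 0.26 in skin (0.05 to 0.47) and at -2.42 in PG (-2.91 to -1.95). The *Sbsn* levels of sebocyte-like cells, 437 CPM in skin and 9.99 CPM in PG, were near the 387 and 9.68 CPM estimated from free RNA. For *Krtdap* the same estimate gave 325 and 78.5 CPM, against 32.1 and 17.5 CPM found. It therefore cannot show whether the *Sbsn* levels were background.

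Barcodes left out for more than 10% mitochondrial UMIs also held RNA of the envelope genes. In skin the *Lce* genes stood at 13.7 CPM, the *Sprr* genes at 57.5 CPM and the other genes at 4324 CPM in these barcodes. In PG the *Sprr* genes stood at 336 CPM and the other genes at 866 CPM.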

How the results depend on the processing

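The values depend most on where the classes were cut and, for *Lce* genes, on a few barcodes. The *Lce* sum of granular-like skin cells, 26588 CPM, was 18741 with at least 1000 genes and 2000 UMIs, a filter that drops the barcode with the most *Lce* UMIs, 27394 with at most 5% mitochondrial UMIs, 25191 without simulated-doublet scorers, 85345 with a doubled gate margin, 34174 with median-of-ratios scaling, 27791 with free RNA subtracted, 12939 with no gate margin and 19851 without that barcode. The sum of the other genes there, 127559 CPM, was 129906, 129523, 129383, 150993, 163952, 133154 and 89275 under the first 7 of these alternatives, in the same order. The *Sprr* sum of upper follicle-like skin cells, 682 CPM, was 796.4 with the stricter gene and UMI filter, 404.9 with a doubled margin, 373.9 with Leiden clusters and 552.4 with no margin. The *Sprr* sum of PG duct-like cells, 4513 CPM, was 4697 with at most 5% mitochondrial UMIs, 5157 with a doubled margin, 4251 with Leiden clusters, 5502 with median-of-ratios scaling, 5002 with free RNA subtracted and 3954 with no margin. The sum of the other genes in the duct-like class, 9763 CPM, was 10140, 11309, 9178, 11903, 10830 and 8578 under these 6 in the same order, and 10088 with the stricter filter and 9977 without doublet scorers. In spinous-like cells it was 18935 CPM and became 19601 with the stricter filter, 13331 with a doubled margin, 11287 with Leiden clusters, 18754 with median-of-ratios scaling, 20731 with free RNA subtracted and 19502 with no margin. The log2 ratio of the *Sprr* sum in PG duct-like over skin upper follicle-like cells, 2.73, was 2.515 with the stricter filter, 3.671 with a doubled margin, 3.507 with Leiden clusters and 3.004 with median-of-ratios scaling. That of the other genes, 0.33, was 0.265 with the stricter and 0.3693 with the looser filter (200 genes and 500 UMIs), 1.17 with a doubled margin, 0.6064 with median-of-ratios scaling, 0.4275 with free RNA subtracted and 0.1 with no margin, and it reversed to -0.234 with Leiden clusters. The cause was not tested. Leiden clusters gave no granular-like class and so no value for it. Median-of-ratios scaling shifted all log2 levels by 0.362 in the granular-like and 0.286 in the duct-like class. No paired analysis was possible because each tissue was 1 pooled library.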
